A study of Mus musculus with 36 samples.

Results

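Messenger RNA of 9 membrane transporters that carry drugs, organic cations, organic anions and related compounds was followed in the developing mouse liver. The genes were taken by name: Slc22a7, Slc22a18, Slc22a30, Slc47a1, Slco2a1, Slco2b1, Abcb1a, Abcc6 and Abcg2. Of the 21889 gene symbols with values, 8 of these genes were found under their present symbol and 1, Slc22a30, under an older symbol, C730048C13Rik, which the RefSeq gene table lists as its synonym. The livers came from 36 male C57BL/6 mice (C57BL/6J in the study's methods), 3 at each of 12 ages, and no mouse received a treatment. The ages are counted in days from birth: Day -2 (before birth), Day 0 (newborn, before suckling), then Days 1, 3 and 5, followed by Days 10, 15 and 20 before weaning, Days 25 and 30 after it, and the adult ages Day 45 and Day 60. Each mouse was sampled once, so the ages are separate groups of animals and weaning, at Day 21 per the study's methods, falls between Day 20 and Day 25. Values are FPKM, fragment numbers scaled to transcript length and to the mapped fragments of the library.

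Transporters decide which compounds enter the hepatocyte from blood and which leave it into bile or back into blood. The solute carriers of the Slc22 and Slco families take up or exchange organic ions, the Slc47 exchangers swap organic cations for protons at the bile canaliculus, and the Abc transporters pump substrates out at the cost of ATP. Slc22a7 is an organic anion transporter of the sinusoidal membrane, Slco2a1 is known as the prostaglandin transporter, and Slco2b1 takes up sulphated steroids and many drugs. Abcb1a encodes a P-glycoprotein, Abcg2 the breast cancer resistance protein, and Abcc6 a basolateral pump of the hepatocyte whose loss causes ectopic mineralisation. Slc22a18 is an imprinted gene, and the substrates of Slc22a30 are not well described.

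The genes lie on 7 chromosomes. On NCBI37/mm9, the genome the authors mapped to, and in the GENCODE M1 annotation, Slc22a7 occupies chr17:46569134-46575426 on the minus strand and Slc22a30 chr19:8409861-8479601 on the minus strand. Slc22a18 (chr7:150659626-150685239, plus strand), Slco2b1 (chr7:106806314-106859850, minus strand) and Abcc6 (chr7:53231750-53285672, minus strand) are far apart on chromosome 7. Slc47a1 lies at chr11:61156902-61191847 on the minus strand and Slco2a1 at chr9:102910817-102990179 on the plus strand. Abcb1a lies at chr5:8660077-8748575 and Abcg2 at chr6:58534517-58642863, both on the plus strand. The exons of Slco2b1 share 418 bases with Gm15635, a transcript annotated on the opposite strand, and the library kit does not mark strand, so reads of that stretch cannot be told apart. Slc22a30 sits among related Slc22 genes and Abcb1a has a close copy, Abcb1b, so fragments from shared sequence may have been divided between relatives.

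Mice of 1 age resembled each other. Pearson's r of log2(FPKM + 1) over the 11149 genes tested was at least 0.952 between mice of an age, with a median of 0.978 over 36 pairs, and no pair of libraries was identical. The FPKM values carry no counts. From the spacing of the values of 290 low genes with 1 annotated transcript, depth was estimated at 85.3 M fragments per library (quartiles over genes 76.7 and 91.7), with relative depths from 0.894 to 1.27. With that estimate, 69.7% of those values came within 0.1 of whole fragments. At that depth 3 fragments correspond to 0.0173 FPKM for Slc22a7, 0.0104 for Slc22a30 and 0.00642 for Abcb1a. The estimate is approximate, because the remaining values lay further from whole fragments. The lowest mouse stood on an estimated 2895 fragments for Slc47a1 and 3145 for Abcg2, whereas the Abcb1a values stood on an estimated 12 to 433.

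Several libraries held RNA of genes foreign to liver. In Day 1 replicate 2 the 6 kidney markers summed to 51.8 FPKM, led by Slc34a1, and in Day 1 replicate 3 to 2.44 FPKM, whereas the sum in every other mouse was at most 0.142 FPKM. The 5 muscle markers, led by Acta1, summed to 867 FPKM in Day 0 replicate 1 and 59.5 FPKM in Day 10 replicate 1. The 5 pancreas markers, led by Ctrb1, summed to at least 1013 FPKM in 7 mice, with 12914 FPKM in Day 60 replicate 1, 4586 in Day 0 replicate 3 and 4526 in Day 20 replicate 2, and to at most 17.5 FPKM in each mouse of Day -2, Day 25 and Day 30. The 4 adrenal markers never passed 0.76 FPKM in sum. None of the markers with values was at 0 in all 36 mice. The hepatocyte list, led by Alb, was present in every mouse, with 8862 FPKM or more.

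Another difference between mice of 1 age concerned transcript length. Relative to the mean of their age, longer transcripts were lower in Day 30 replicate 1 (a slope of -0.16 on the log2 scale per doubling of length over 10939 genes), Day 25 replicate 2 (-0.14) and Day 45 replicate 3 (-0.10). The opposite slope was largest in Day -2 replicate 1 (0.14). Those 3 older mice also had the lowest Slc22a30, Slc47a1, Slco2a1, Slco2b1, Abcc6 and Abcg2 values of their age, 6 of the 8 transporters tested below. The next lowest slopes, -0.09, were in Day 1 replicate 3, Day 5 replicate 2, Day 10 replicate 3 and Day 15 replicate 3. Day 1 replicate 3 and Day 10 replicate 3 were likewise lowest of their age for these 6 transporters. Day 5 replicate 2 was highest for Slc47a1, Slco2b1 and Abcc6 and lowest for Abcg2. Day 15 replicate 3 was highest for Slco2b1, Abcc6 and Abcg2 and lowest for Slc22a30 and Slc47a1. Whether transcript length had a part in those values was not tested.

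Of the 9 transporters, 8 reached a mean of 1 FPKM in at least 1 age and were tested. Abcb1a, with a highest age mean of 0.612 FPKM, did not. Differences are on the log2(FPKM + 1) scale, from limma fitted to all 36 mice with Benjamini-Hochberg adjusted p, and a gene is called where that p is under 0.05. All differences understate the change of genes near or below 1 FPKM. All 8 tested transporters differed from Day 60 in at least 1 age, when 90.7% of all tested genes did. At Day -2 all 8 were called (75.1% of all genes), at Day 0 it was 7 (63.9%) and at Day 1 it was 6 (65%). At Day 3 it was 6 (66.0%) and at Day 5 it was 3 (65.4%), or 7 with upper-quartile scaling (6057 of all 11149 genes). At Day 10 (46.0% of all genes), Day 15 (27.4%) and Day 20 (15.9%) the counts were 6, 6 and 5 of 8. At Day 25 the count was 4 (7.42%), at Day 30 it was 1 (3.56%), and at Day 45 none was called (0.233%), with 1 transporter, Slc22a7, at an unadjusted p under 0.05. These 11 contrasts share the 3 mice of Day 60. Whether the share of transporters differed from that of all genes was not tested.

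**Figure D1:**
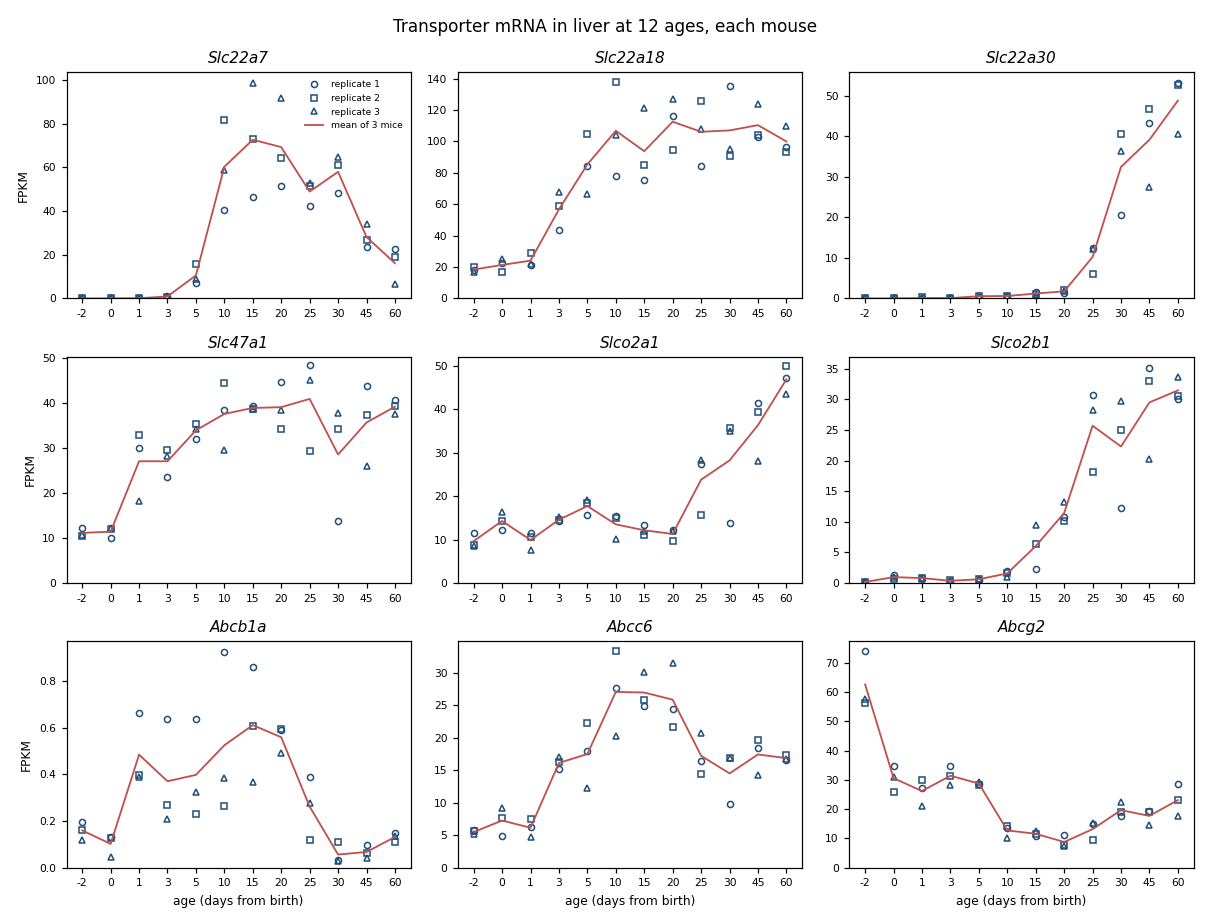
FPKM of the 9 transporters (vertical axes, each with its own range from 0) at the 12 ages in days from birth (horizontal axis, evenly spaced and not to scale), with a symbol for each of the 3 mice and a line through the age means. Slc22a7 peaked at 72.7 FPKM on Day 15, Slc22a30 reached 48.8 FPKM on Day 60, and Abcg2 was highest at Day -2 with 62.6 FPKM.

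In broad age groups, 7 transporters were lower in the perinatal ages (Day -2 to Day 5) than after weaning (Days 25 to 60), and Abcg2 was higher. All 8 were called in this contrast, in which 85.7% of all genes were called and the median difference of all tested genes was 0.54. The median of the 8 was -1.42. Between Days 10 to 20 and Days 25 to 60, 6 were called (57.3% of all genes): Slc22a7 and Abcc6 were higher in the earlier group, and Slc22a30, Slco2a1, Slco2b1 and Abcg2 lower. Slc22a18 (-0.04 ± 0.12 SE, adjusted p = 0.8) and Slc47a1 (0.14 ± 0.14, adjusted p = 0.38) were not called there. Both contrasts use the same 12 mice of Days 25 to 60.

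Slc22a7, an uptake carrier for organic anions such as cyclic nucleotides, showed a rise and then a decline. It was listed at 0 in all 6 mice of Day -2 and Day 0, so no fold can be given against those ages. On Day 1 the mice had 0.0397, 0.205 and 0.0376 FPKM, the highest being the mouse with kidney markers, and without it the mean was 0.0386 instead of 0.094 FPKM. The level then climbed steeply over 3 sampled ages. The means were 0.907 ± 0.194 FPKM on Day 3 (SD, n = 3), 10.6 ± 4.82 on Day 5 and 60.3 ± 20.5 on Day 10. Day 15 (46.4, 73 and 98.7 FPKM), Day 20 (51.7, 64.5 and 91.7), Day 10, Day 30 and Day 25 followed each other in order of level with overlapping values. The adult level was far below that plateau. The mice of Day 45 had 23.5, 26.8 and 34.1 FPKM, and those of Day 60 had 22.8, 19 and 6.62 FPKM, and the values of Day 30 (48.4, 60.9 and 64.7) did not overlap with either age. Day 60 was lower than Day 30 by limma, where Slc22a7 fell by 1.93 ± 0.32 (adjusted p = 0.00024). It was the 1 transporter called between Day 30 and Day 60, a contrast in which 3.56% of all genes were called. Against Day 60 the mean was 450% on Day 15 and 5.61% on Day 3.

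Slc22a30 was the transporter most strongly tied to the adult ages. It was at 0 in the 3 mice of Day 0 and at or below 0.012 FPKM in those of Day -2, about the level of 3 fragments. The Day 1 values of 0.0301, 0.234 and 0.00536 FPKM were again highest in the mouse with kidney markers, and without it the mean was 0.0178 FPKM in place of 0.0898. From Day 3 to Day 20 the age mean moved from 0.0768 to 1.74 FPKM, still 3.57% of the Day 60 mean. Then came a jump across weaning. Day 20 had 1.46, 2.03 and 1.74 FPKM, Day 25 had 12.4, 5.97 and 12.3, Day 30 had 20.6, 40.5 and 36.3, and Day 60 had 53.2, 52.7 and 40.6. Values of Days 20, 25 and 30 did not overlap with each other, while those of Day 45 overlapped with both Day 30 and Day 60. From Day 20 to Day 25 Slc22a30 rose by 1.98 ± 0.22 (limma, adjusted p = 1.5e-07), and it was lower than on Day 60 at each age up to Day 25. Its difference between Day 30 and Day 60 was 0.62 ± 0.22 (adjusted p = 0.12), not called, and ranged from 0.33 (adjusted p = 0.74) without Day 30 replicate 1 to 0.80 (adjusted p = 0.044) without Day 30 replicate 2. Of 5 related genes, Slc22a19 had at most 0.0126 FPKM in any mouse outside Day 1. Slc22a26, Slc22a27, Slc22a28 and Slc22a29 were not found under these symbols, and their older symbols were not searched.

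Slco2a1, which clears prostaglandins from the extracellular space, was present from the first age and stepped up after weaning. Its age means lay between 9.65 FPKM (Day -2) and 17.7 FPKM (Day 5) up to Day 20, with no steady direction. On Day 20 the mice had 12.2, 9.68 and 12 FPKM and on Day 25 they had 27.4, 15.7 and 28.2, so the groups did not overlap. On Day 60 the values were 47.1, 49.9 and 43.5 FPKM, above every mouse of the other ages. Slco2a1 rose by 0.97 ± 0.25 from Day 20 to Day 25 (limma, adjusted p = 0.011). That call was lost without any 1 of Day 20 replicate 2, Day 25 replicate 1 or Day 25 replicate 3 (adjusted p = 0.07, 0.064 and 0.077). On Day 30 the mice had 13.9, 35.7 and 35 FPKM, the low one being the library with the strongest length slope. The difference between Day 30 and Day 60 was 0.82 ± 0.25 (adjusted p = 0.06). Without that library it was 0.39 (adjusted p = 0.58). The difference was called without Day 30 replicate 2 (1.04, adjusted p = 0.02) or Day 30 replicate 3 (1.03, adjusted p = 0.026). Upper-quartile scaling (0.69, adjusted p = 0.033), a filter of 5 FPKM (0.82, adjusted p = 0.047) and some other settings also gave the call.

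Slco2b1, an uptake carrier for steroid sulphates, statins and other drugs, increased in several steps. It had 0.188, 0.142 and 0.181 FPKM at Day -2 and 1.26, 0.599 and 1.06 at Day 0, without overlap. The newborn value was higher by 0.74 ± 0.29 (limma, adjusted p = 0.034), but leaving out any 1 of 5 of these 6 mice ended that call, with adjusted p up to 0.11. The level stayed near or below 1 FPKM until Day 5 and was lower on Day 3 (0.373 ± 0.0804 FPKM, SD, n = 3) than on Day 0 (0.973 ± 0.339). From Day 10 each sampled age up to Day 25 was above the one before. The means were 1.57 ± 0.489 FPKM on Day 10, 6.05 ± 3.58 on Day 15, 11.4 ± 1.65 on Day 20 and 25.7 ± 6.66 on Day 25, and the ranges of these ages did not overlap. Day 25 exceeded Day 20 by 1.08 ± 0.29 (limma, adjusted p = 0.019), a call that was lost without any 1 of Day 20 replicate 1, Day 20 replicate 2, Day 25 replicate 1 or Day 25 replicate 3 (adjusted p from 0.059 to 0.089). In order of level, Days 30, 25, 45 and 60 each overlapped with the next, though Day 30 (12.2 to 29.7 FPKM) lay below Day 60 (30.1 to 33.7).

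Thus 3 carriers were called higher on Day 25 than on Day 20, namely Slc22a30, Slco2a1 and Slco2b1, and none lower, where 7.19% of all genes were called. Without the 7 mice of high pancreas marker sums, among them Day 20 replicate 2, an alternative added after seeing the data, 1 carrier, Slc22a30, was called, and the differences of Slco2a1 (0.88, adjusted p = 0.12) and Slco2b1 (1.01, adjusted p = 0.079) stayed close to those of all mice. The pancreas list itself had 1511 ± 2611 FPKM on Day 20 (SD, n = 3) and 1.23 ± 0.0681 on Day 25, almost all of it from that 1 mouse. In Day 20 replicate 2 the 3 carriers had 2.03, 9.68 and 10.2 FPKM, and the other mice of the age had 1.46 and 1.74, 12.2 and 12, and 10.8 and 13.3 FPKM.

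Slc22a18, placed in the organic cation carrier family and located in an imprinted region, had the highest FPKM of the 9 from Day 3 on. It had 18.2, 19.9 and 17.1 FPKM at Day -2 and overlapped with that level on Day 0, and Day 1 (21.3, 28.9 and 22) lay just above it. Day 3, with 43.5, 58.8 and 67.9 FPKM, lay above all earlier mice, and Day 5 had 84.3, 105 and 66.7. From Day 5 on the ages could not be placed in order: their means ran from 85.3 to 112 FPKM and neighbouring ranges overlapped. Slc22a18 was lower than on Day 60 at Days -2, 0, 1 and 3, with a difference of -2.38 ± 0.22 at Day -2 (limma, adjusted p = 6.5e-11) and -0.82 ± 0.22 on Day 3 (adjusted p = 0.0015). With upper-quartile scaling it was also called lower on Day 5 (-0.87, adjusted p = 0.003, against -0.24 and 0.33). The 3 mice with the lowest length slopes had the highest Slc22a18 value of their age (126 FPKM on Day 25, 135 on Day 30 and 124 on Day 45). At a slope of -0.09, Day 5 replicate 2 (105 FPKM) and Day 15 replicate 3 (121) were also highest. Day 1 replicate 3 (22 FPKM) and Day 10 replicate 3 (104), with the same slope, were not. Slc22a18 has the shortest annotated exon length of the 9, 1718 bases. Slc22a7, the next shortest with 2028 bases, was highest of its age only in Day 45 replicate 3 of these 3 mice (34.1 FPKM). It was lowest of its age in Day 30 replicate 1 (48.4 FPKM).

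Slc47a1, the proton exchanger that moves organic cations such as metformin into bile, was called below Day 60 only at the first 2 ages. That result depends on the scaling and on the mice fitted. It had 12.3, 10.5 and 10.6 FPKM at Day -2, 10, 11.9 and 12.3 on Day 0, and 30, 32.8 and 18.3 on Day 1, so that Day 1 stood apart from both. At Days -2 and 0 Slc47a1 was lower than at Day 60, by limma differences of -1.73 ± 0.25 (adjusted p = 5.5e-07) and -1.70 ± 0.25 (adjusted p = 1.1e-06). The Day 1 difference of -0.56 ± 0.25 was not called (adjusted p = 0.054), but it was called without Day 1 replicate 2 (-0.71, adjusted p = 0.03), without Day 30 replicate 1 (adjusted p = 0.012), under upper-quartile scaling (-1.03, adjusted p = 8.6e-05), and under several other settings. Without Day 1 replicate 3 it was smaller (-0.31, adjusted p = 0.31). Upper-quartile scaling also gave calls on Day 3 (-1.13, adjusted p = 2.7e-05, against -0.52 and 0.07) and Day 5 (-0.82, adjusted p = 0.0013, against -0.20 and 0.5). TPM scaling gave a call on Day 3 (adjusted p = 0.042), and so did leaving out Day 30 replicate 1 (-0.52, adjusted p = 0.018). From Day 5 the age means lay between 28.5 and 40.9 FPKM, and ages next to each other in order of level overlapped, though Day 5 (32 to 35.4) lay below Day 60 (37.5 to 40.6). The Day 30 mice had 13.7, 34.1 and 37.8 FPKM, and without the lowest the mean was 35.9 instead of 28.5 FPKM. Its relative Slc47a2 had no age mean above 0.0747 FPKM.

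Among the pumps, Abcc6 was highest on Days 10, 15 and 20. It had 5.75, 5.59 and 5.12 FPKM at Day -2 and a mean of 6.15 ± 1.38 FPKM (SD, n = 3) on Day 1, and Day 3 with 15.2, 16.2 and 17 FPKM lay above all of these. The means of Days 10, 15 and 20 were 27.1, 27 and 25.9 FPKM, and that of Day 60 was 16.9 ± 0.361. Days 10 to 20 exceeded Days 25 to 60 by 0.66 ± 0.12 (limma, adjusted p = 3e-05). For single ages against Day 60 the excess was smaller relative to its error. It was 0.62 ± 0.22 on Day 10 (adjusted p = 0.022) and 0.64 ± 0.22 on Day 15 (adjusted p = 0.031). The Day 20 difference of 0.57 ± 0.22 was not called (adjusted p = 0.082), but it was with upper-quartile scaling (0.63, adjusted p = 0.015). The Day 15 call was lost without any 1 of the 6 mice compared (adjusted p from 0.052 to 0.1), and the Day 10 call without Day 10 replicate 1, Day 10 replicate 2, Day 60 replicate 1 or Day 60 replicate 3 (adjusted p from 0.05 to 0.13). Both were lost without the pancreas libraries (adjusted p = 0.13 on Day 10 and 0.2 on Day 15). At Days -2, 0 and 1 Abcc6 was lower than on Day 60, by -1.47 ± 0.22 at Day -2 (adjusted p = 9e-07). With upper-quartile scaling it was also called lower on Day 3 (-0.65, adjusted p = 0.0041, against -0.06) and Day 5 (-0.59, adjusted p = 0.0097, against 0.01).

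Abcg2, which exports drugs and urate across the canalicular membrane and is also expressed in blood-forming cells, was highest before birth, unlike the other 7 tested transporters. The Day -2 mice had 74, 56.4 and 57.5 FPKM and those of Day 0 had 34.8, 25.9 and 31.1, so the ages did not overlap. Abcg2 fell by 1.01 ± 0.19 at birth (limma, adjusted p = 8e-05). Days 0, 1, 3 and 5 had overlapping values with means from 26.2 to 31.5 FPKM. Between Day 5 (28.7, 28.2 and 29.4 FPKM) and Day 10 (13.7, 14.4 and 10.1) there was a second step. The minimum of 8.79 ± 2.19 FPKM came on Day 20 (SD, n = 3), and Day 60 had 28.5, 23.3 and 17.5 FPKM. Abcg2 was lower than on Day 60 at Days 10, 15, 20 and 25, by -1.30 ± 0.19 on Day 20 (limma, adjusted p = 8.1e-06). The difference of 0.45 ± 0.19 on Day 3 was just called (adjusted p = 0.04), and its sign turned with upper-quartile scaling (-0.15, adjusted p = 0.48). The call was also lost with no filter, with TPM scaling, and without any 1 of Day 3 replicates 1 and 2 and Day 60 replicates 2 and 3 (adjusted p from 0.051 to 0.25). The Day 25 call (-0.77 ± 0.19, adjusted p = 0.0092) was lost without Day 25 replicate 2 (adjusted p = 0.11) or Day 60 replicate 1 (adjusted p = 0.092).

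The erythroid list moved in the same direction as Abcg2 from Day -2 to Day 0. From Day 0 to Day 5 the mean erythroid sum went from 72396 to 28646 FPKM, while the Abcg2 means stayed between 26.2 and 31.5 FPKM. On Day 10 both were lower than on Day 5, with means of 12027 FPKM for the list and 12.7 FPKM for Abcg2. All 8 genes of the list with values, of 9 listed, were tested, Hba-a1 being the most abundant. At Day -2 the sums per mouse were 127290, 161994 and 185253 FPKM, on Day 0 they were 60060, 80435 and 76692, on Day 20 they were 3429, 4587 and 3742, and on Day 60 they were 683, 652 and 716. All 8 fell at birth, where 4617 of all 11149 genes fell and 1466 rose (2906 and 2235 with upper-quartile scaling). All 8 were higher in Day -2 to Day 5 than in Days 25 to 60, where 7824 of all genes were higher and 1728 lower. From Day 20 to Day 60 Abcg2 and the erythroid sum went opposite ways. In bulk liver, fewer cells of a type and less RNA per cell cannot be told apart, and the part of blood-forming cells in the Abcg2 values was not tested. The neutrophil (7 of 7), megakaryocyte (5 of 5) and B lineage (6 of 6) lists were likewise all higher in Day -2 to Day 5 than in Days 25 to 60, and of the 8 hepatocyte markers 5 were lower and 1 higher. At birth 7 of the 8 hepatocyte markers rose and none fell, and the neutrophil (2 rose), megakaryocyte (0) and B lineage (3) lists had no gene that fell. Of the endothelial list 7 of 8, of the macrophage list 5 of 7, of the stellate list 4 of 6 and of the biliary list 4 of 4 tested genes were higher in Day -2 to Day 5 than in Days 25 to 60, and 1, 2, 1 and 0 were lower.

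Abcb1a was low but above 3 estimated fragments in every mouse. The highest value in any mouse was 0.926 FPKM, in Day 10 replicate 1. Replicate 1 was the highest of its age at every age but Day 20 and Day 30, for instance 0.665, 0.399 and 0.391 FPKM on Day 1 and 0.926, 0.266 and 0.384 on Day 10. Age means were 0.371 to 0.612 FPKM at Days 1 to 20 and lay between 0.0563 and 0.132 from Day 30 to Day 60. The 3 mice of Day 20 (0.591, 0.596 and 0.492 FPKM) lay above all mice of Day 25 (0.388, 0.12 and 0.279) and of Day 30 (0.0326, 0.11 and 0.0267). Fitted without a filter on low values, Abcb1a was higher in Days 10 to 20 than in Days 25 to 60 by 0.46 ± 0.07 (limma, adjusted p = 4.5e-06). The difference between Days 20 and 25 was not called (-0.31 ± 0.13, adjusted p = 0.23). Abcb1b had a highest age mean of 0.166 FPKM.

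**Figure D2:**
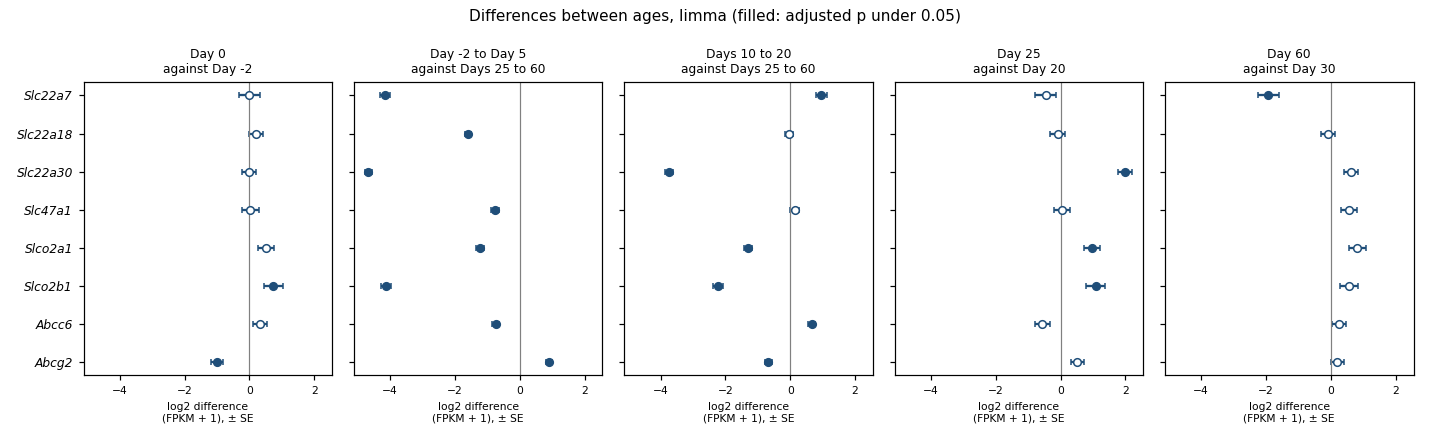
Differences between ages on the log2(FPKM + 1) scale (horizontal axes, bars are ± 1 SE from limma) for the 8 tested transporters (vertical) in 5 contrasts (panels). Filled symbols mark an adjusted p under 0.05. Among those called, Abcg2 is the 1 transporter to the left at birth. Slc22a30, Slco2a1 and Slco2b1 are the ones called between Day 20 and Day 25, all to the right.

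Few transporters were called at birth. From Day -2 to Day 0, Slco2b1 rose and Abcg2 fell, and the other 6 were not called, in a contrast where 54.6% of all genes were called and the median of all tested genes was -0.29. Slco2a1 differed by 0.52 ± 0.25 (limma, adjusted p = 0.074) and Slc47a1 by 0.03 ± 0.25 (adjusted p = 0.94). With upper-quartile scaling the median of all genes moved by 0.21, and 4 transporters and 5141 of all 11149 genes were called.

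Set beside their families, the transporters were part of mixed groups. Of 19 tested uptake and exchange carriers of the Slc22 and Slco families, 10 were lower and 4 higher in Day -2 to Day 5 than in Days 25 to 60, with a median difference of -0.38, where 7824 of all 11149 genes were higher and 1728 lower. The median was -0.84 with upper-quartile scaling, and -1.49 (14 tested, 3 higher, 10 lower) without the muscle and kidney libraries, an alternative added after seeing the data. Among the other Slc22 carriers, Slc22a23 had a highest age mean of 14.6 FPKM. In the Slco family 5 of 6 tested genes were lower in the perinatal ages and none higher. Its other leading genes, the bile acid and anion carriers Slco1b2 and Slco1a1, reached 31.3 and 25 FPKM on Day 60. Of 20 tested ATP-driven transporters, 11 were higher and 5 lower in Day -2 to Day 5 than in Days 25 to 60, with a median of 0.58, against 0.54 for all genes. Upper-quartile scaling changed these to 9 higher and 8 lower, with a median of 0.14. Under that scaling 5222 of all 11149 genes were higher and 3566 lower, also with a median of 0.14. The 2 most abundant other pumps of each family were Abcb10 (60.2 FPKM at Day -2), the bile salt pump Abcb11 (56.4 FPKM on Day 60), Abcc3 (42.3 FPKM on Day 60), Abcc2 (30.2 FPKM on Day 1), and the sterol transporters Abcg5 (95.8 FPKM on Day 15) and Abcg8 (57.2 FPKM on Day 15).

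Around weaning the families differed in count. Between Day 20 and Day 25, 4 of the 19 uptake and exchange carriers rose and 1 fell, and of the 20 ATP-driven genes none rose and 2 fell, while 439 of all 11149 genes rose and 363 fell. With upper-quartile scaling 5 carriers rose and 1 fell, and 1 ATP-driven gene rose and 3 fell. Of all genes 573 rose and 530 fell under that scaling. Without the muscle and kidney libraries 5 of 14 tested carriers rose and 1 fell. The carriers that rose were Slc22a30, Slco2a1, Slco2b1 and Slco1a1 (1.24 ± 0.36, limma, adjusted p = 0.028), and the one that fell was Slco1a4 (from a mean of 20.8 to 9.88 FPKM, adjusted p = 0.0076). The pumps that fell were Abcg5 (-1.76 ± 0.31, adjusted p = 0.00021) and Abcg8 (-1.37 ± 0.33, adjusted p = 0.0082). The difference between the families was not tested.

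On Day 1 the Slc22 counts depended on the mouse with kidney genes. Against Day 60, 7 of 13 tested Slc22 genes were called higher on Day 1, as were 5949 of all 11149 genes. Without Day 0 replicate 1 and Day 1 replicate 2, 8 Slc22 genes passed the filter and 1 was called higher. Slc22a6, Slc22a2, Slc22a12 and Slc22a19, renal carriers that passed the filter on Day 1 alone, had 6.92, 5.1, 3.7 and 3.05 FPKM in that mouse and at most 0.0227 FPKM in Day 1 replicate 1.

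Regulators known for transporter genes in liver were measured alongside. From Day -2 to Day 0, 9 of 13 rose and 1, Nfe2l2, fell, with a median difference of 0.60, against -0.29 for all genes, of which 1466 of 11149 rose (2235 with upper-quartile scaling). Without the muscle and kidney libraries 6 of 13 rose. In the same contrast the hepatocyte list went from a mean of 9667 to 57260 FPKM and the erythroid list from 158179 to 72396, and their part in the result was not tested. Nr1i3, a xenobiotic receptor, rose by 2.58 ± 0.19 (limma, adjusted p = 6e-12), from 0.53 to 8.43 FPKM, and Nr1h4, the bile acid receptor, by 1.19 ± 0.18 (adjusted p = 3.4e-06). Between Days 10 to 20 and Days 25 to 60, 6 of 13 were higher in the earlier group, as were 5003 of all 11149 genes, among them Ppara (0.98 ± 0.20, adjusted p = 0.00012), and Ghr, the growth hormone receptor, was lower (-0.43 ± 0.08, adjusted p = 4.8e-05). Between Day 20 and Day 25 none of the 13 was called by limma, and 2 had an unadjusted p under 0.05. Ghr had 6.71 ± 1.58 FPKM at Day -2, 73.7 ± 11.3 on Day 20 and 102 ± 12 on Day 60 (SD, n = 3).

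Genes with the most similar profile were ranked by Pearson's r of log2(FPKM + 1) over the 36 mice among 6852 genes of at least 5 FPKM in some age. This is a description, since the mice of an age share it and most genes follow age. Slco2b1 was closest to Mug2 and Mug-ps1 (r = 0.99) and Cyp2c39 (0.98), and Slc22a30 to Mup3, Ces3b and Sdr9c7 (0.98). Genes close to Slc22a18 included Acy3 and Aspdh (0.96), and the list for Slc47a1 was Nfic (0.97), Xylb (0.95) and Clmn (0.94). Slc22a7 was nearest to Dio1, Sqrdl and Notum (0.95), and Abcc6 to Agxt2 (0.95), Fggy and Slc17a4 (0.94). For Slco2a1 the nearest genes were Aox1, Camk1d (0.92) and Cyp2c67 (0.91), and for Abcg2 they were 0610009D07Rik (0.93), Becn1 and Slc6a9 (0.92). Among the transporters themselves r was 0.91 between Slc22a30 and Slco2b1, 0.90 between Slc22a7 and Slc22a18, and -0.81 between Slc22a7 and Abcg2.

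Promoter sequences, 250 bases before to 50 bases after a transcription start, were matched by symbol in the RefSeq table (GRCm38.p6) for 6 of the 9 genes, with 10 entries in all. Both strands were searched for GTTAAT (part of an HNF1 site), AGGTCA (a core of nuclear receptor sites), AGATAA (recognised by GATA factors), TTCNNNGAA (a STAT site) and TATAAA (the TATA box), which occur in 7.1%, 16.3%, 11.2%, 8.3% and 13.6% of 32851 promoters. A match is a description of sequence and does not show binding. The promoters of the 3 carriers that rose together between Day 20 and Day 25 are shown, from 5′ to 3′ on the strand of the gene, with motif matches in capitals. Slc22a30 (chr19:8405056-8405355, minus strand) held none of the 5, Slco2a1 (chr9:103008237-103008536, plus strand) held TATAAA, and a pair of Slco2b1 starts (chr7:99695760-99696059 and chr7:99706793-99707092, minus strand) each held TTCNNNGAA.
Slc22a30: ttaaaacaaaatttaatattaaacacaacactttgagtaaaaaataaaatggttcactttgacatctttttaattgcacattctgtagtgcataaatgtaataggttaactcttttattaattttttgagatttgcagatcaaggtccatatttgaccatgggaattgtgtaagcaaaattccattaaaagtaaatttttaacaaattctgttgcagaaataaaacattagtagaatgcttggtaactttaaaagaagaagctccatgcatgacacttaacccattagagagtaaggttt
Slco2a1: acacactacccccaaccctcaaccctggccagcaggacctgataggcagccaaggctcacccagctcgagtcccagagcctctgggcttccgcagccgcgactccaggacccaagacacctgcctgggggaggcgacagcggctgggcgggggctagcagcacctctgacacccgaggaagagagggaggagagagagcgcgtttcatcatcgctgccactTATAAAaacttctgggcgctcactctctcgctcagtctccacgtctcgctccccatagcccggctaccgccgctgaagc
Slco2b1, start nearer the gene end: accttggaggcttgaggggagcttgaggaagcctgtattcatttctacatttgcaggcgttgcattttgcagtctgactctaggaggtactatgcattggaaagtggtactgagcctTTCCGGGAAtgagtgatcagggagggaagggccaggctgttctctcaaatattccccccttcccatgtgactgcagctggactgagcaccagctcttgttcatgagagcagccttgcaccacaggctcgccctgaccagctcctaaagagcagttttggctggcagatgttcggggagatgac
Slco2b1, start further upstream: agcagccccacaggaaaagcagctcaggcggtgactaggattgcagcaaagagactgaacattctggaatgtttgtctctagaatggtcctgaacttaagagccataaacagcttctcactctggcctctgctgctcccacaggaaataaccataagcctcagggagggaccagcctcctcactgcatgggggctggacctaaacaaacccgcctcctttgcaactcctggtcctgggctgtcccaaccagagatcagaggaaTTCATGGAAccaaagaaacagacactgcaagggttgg
The other Slco2b1 start and the Slc22a30 promoter held none of the 5 motifs. At Abcg2, the gene highest before birth, 2 of 3 starts held AGGTCA and 2 of 3 held TATAAA. Both of these TATAAA matches lay in the 50 bases after the start, not before it.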

How the data were processed

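Total liver RNA was made into polyadenylated, unstranded paired-end libraries by the authors, who mapped the reads to NCBI37/mm9 with TopHat 1.2.0, estimated expression with Cufflinks 1.0.3 against the Ensembl annotation (version 65), and deposited FPKM per gene symbol on a linear scale. No further scaling between libraries is named, and summed FPKM per mouse was 353712 to 450597. Labels gave the ages. Here log2(FPKM + 1) was fitted for genes whose mean reached 1 FPKM at any age, using limma 3.58.1 (R 4.3.3) with 1 mean per age and a mean-variance trend, and p-values were adjusted by Benjamini-Hochberg over all genes within a contrast, or over genes and 11 contrasts together for any age against Day 60. The limma step was tested on simulated data. Alternatives were a pseudocount of 0.1, no filter, a filter of 5 FPKM, upper-quartile and TPM scaling, a replicate block, no trend, and leaving out each mouse. Alternatives added after seeing the data left out libraries with muscle and kidney, pancreas or length signals, or removed each library's length trend. Named were the 9 transporters, the 3 most similar genes of each tested one, the 2 most abundant other genes per family, near relatives, regulators and marker lists (some of these genes are not reported here); renal carriers, Slco1a4, Slc22a4 and Abcg4 were named after their values were seen. The transporters and lists were chosen with earlier results of these data known. Python 3.11.15, numpy 2.4.6, pandas 2.3.3 and matplotlib 3.10.9 were used for the rest.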

Additional observations from a re-analysis of the deposited data

How the results depend on the processing

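Each of the 34 counts and 128 transporter differences was recomputed under 47 alternatives. Of 6016 alternative values of the differences, 5873 kept direction and side of the threshold, 42 lost the call, 52 gained it and 49 changed sign at 2 decimals, 47 of these with no call in either fit. Of 1598 counts, 1535 stayed within 1.5 times. The cause of these changes was not tested, also where fewer genes or mice were fitted. The 2 sign changes with a call came with upper quartile scaling: Abcg2 on Day 3 against Day 60 (-0.15, adjusted p = 0.48, against 0.45) and Abcc6 on Day 5 (-0.59, adjusted p = 0.0097, against 0.01). That scaling moved the median of all genes by -0.40 in Day -2 to Day 5 against Days 25 to 60, and the share of calls that were higher from 81.9% to 59.4%. It gave 7 transporters on Day 5 (6057 genes), 2 on Day 30 (647 genes) and 4 for Day 0 against Day -2 (5141 genes).

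With the setting filter 5 FPKM fewer genes were tested, and the called genes were 6424 for any age, 5423 on Day -2, 4717 on Day 1, 4834 on Day 3, 4845 on Day 5, 5960 and 4155 for the early and middle age groups, and 3913 for Day 0 against Day -2, with 2 transporters between Days 30 and 60. Day 45 had 16 genes with pseudocount 0.1, 49 with no filter, 11 with TPM scaling, 8 with no pancreas libraries and 9 with no short transcript libraries, against 26. For Day 0 against Day -2, 1 transporter was called with no filter, no muscle and kidney libraries, or no pancreas libraries.

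Among alternatives added after seeing the data, the setting no pancreas libraries (fewer mice) gave 1057 genes on Day 20, 487 on Day 25 with 2 transporters, 187 between Days 30 and 60, and 471 between Days 20 and 25 with 1 transporter. With length trend removed there were 786 genes and 2 transporters between Days 30 and 60; the trend is taken within each age, so by construction age means stay and only the residual spread changes, and this is no test of an effect of length on the differences.

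Leaving out 1 mouse at a time, counts ranged from 488 to 989 genes and 2 to 4 transporters on Day 25, 208 to 574 genes and 1 to 3 transporters between Days 30 and 60, 9 to 38 genes on Day 45, 1 to 3 transporters for Day 0 against Day -2, and 522 to 973 genes and 1 to 4 transporters between Days 20 and 25. Of 4608 differences 30 lost and 24 gained a call, and 27 mice changed at least 1 call.

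The other sign changes were in uncalled differences. With upper quartile scaling, against Day 60, they were Abcg2 on Day 1 (-0.28) and Day 5 (-0.28), Slc22a18 on Day 10 (-0.11), Slc47a1 on Day 20 (0.05) and Slco2b1 on Day 45 (0.04). With TPM scaling they were Abcc6 on Day 5 (-0.04) and Slc47a1 on Day 15 (0.01) and Day 20 (0.05). With no pancreas libraries they were Slc47a1 on Day 15 (0.02), on Day 20 (0.10), for Day 0 against Day -2 (-0.02) and for Day 25 against Day 20 (-0.05), and Abcc6 on Day 45 (-0.02). With no short transcript libraries they were Slc22a18 on Day 25 (-0.06), on Day 30 (-0.10; 0.10 for Day 60 against Day 30) and in Days 10 to 20 (0.06), Slc47a1 on Day 45 (0.04) and in Days 10 to 20 (-0.08), and Slco2b1 on Day 45 (0.11).

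Leaving out 1 mouse, differences that crossed 0 ranged, for Slc22a18, from -0.14 to 0.26 on Day 10, -0.31 to 0.03 on Day 15, -0.06 to 0.22 on Day 25, -0.10 to 0.18 on Day 30 (-0.18 to 0.10 for Day 60 against Day 30), -0.10 to 0.03 in Days 10 to 20 and -0.22 to 0.06 for Day 25 against Day 20. For Slc47a1 they ranged from -0.21 to 0.08 on Day 10, -0.04 to 0.02 on Day 15, -0.11 to 0.08 on Day 20, -0.11 to 0.25 on Day 25, -0.32 to 0.04 on Day 45, -0.02 to 0.11 for Day 0 against Day -2 and -0.09 to 0.26 for Day 25 against Day 20. Abcc6 ranged from -0.18 to 0.23 on Day 5, -0.12 to 0.12 on Day 25 and -0.06 to 0.16 on Day 45, and Slco2b1 from -0.27 to 0.11 on Day 45.

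Replicate numbers are given no meaning by the labels and were not used as pairs: the median r of age-centred values was 0.126 for equal numbers and -0.0476 for others, the lowest was -0.68, 104 of 198 pairs exceeded 0.1, and 19 of 36 mice were closest to their own number. A replicate block gave 10369 genes for any age against 10115, and added Abcg2 on Day 0 (0.41, adjusted p = 0.044), making 8 transporters; it changed no other transporter call. With 3 mice per age and values without counts, small differences and levels near 0.01 FPKM are poorly resolved.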

Other observations

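Day 1 replicate 3 held the kidney genes of Day 1 replicate 2 in a nearly fixed proportion. Over the 6 kidney markers and 6 renal Slc22 genes its value was at most 7.31% of that in replicate 2, with a median of 4.75%, for instance 1.39 against 29.4 FPKM for Slc34a1, 0.643 against 13.7 for Kap and 0.318 against 6.92 for the renal organic anion transporter Slc22a6. Slc34a1, Kap and Slc12a1 were at 0 in replicate 1. In mice of other ages Slc22a8 reached 2.56 FPKM, and none of the other genes passed 0.257 FPKM, the highest value of Slc22a2. The source of these transcripts was not tested.

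Some other transporters were, like Abcg2, highest at Day -2. Age means at Days -2, 20 and 60 were 60.2, 2.16 and 4.75 FPKM for the mitochondrial transporter Abcb10, which serves haem synthesis, 7.88, 0.0131 and 0.00383 for Abcg4, 7.81, 0.214 and 0.495 for the carrier Slc22a4, and 62.6, 8.79 and 23.1 for Abcg2. Abcg4 and Slc22a4 were named after their values were seen, so their values are a description. Abcb10 fell by 1.60 ± 0.21 from Day -2 to Day 0 (limma, adjusted p = 3.1e-07) and was lower in Days 10 to 20 than in Days 25 to 60 (-0.37 ± 0.11, adjusted p = 0.0055).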
